A study of Mus musculus with 9 samples.

Results

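The 8 genes described here belong to the mevalonate and cholesterol synthesis pathway. They are Srebf2, the transcription factor of the pathway, and the enzyme genes Hmgcs1, Idi1, Fdps, Fdft1, Sqle, Lss and Cyp51. They were found by symbol among the 23413 genes of a table of raw read counts from sorted mouse liver macrophages, and they were chosen by a measured value, since Fdps had no counts in the libraries of the mice on normal diet. The levels in those libraries, and every difference from them, are therefore a description of the 8 genes and carry no test, whereas the comparison of the treated with the vehicle mice on high-fat diet was not used in the choice and was tested.

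The libraries came from male C57BL/6 mice, put on their diets at 5 weeks of age and kept on them for 8 weeks. NC mice (n = 2) ate normal chow with 10 kcal% fat and have no treatment in the labels, so diet and vehicle injection cannot be told apart in comparisons with them. HFD vehicle mice (n = 3) ate a high-fat diet with 60 kcal% fat and received PEG3000 alone, and HFD DPI mice (n = 4) ate the same diet and received 2 mg/kg diphenyleneiodonium (DPI) in that vehicle by intraperitoneal injection every 5 days from week 3. DPI is known as an inhibitor of flavin-dependent enzymes, and the study used it as an agonist of the receptor GPR3. At week 8 liver cells were sorted as F4/80+ CD11b+ macrophages (low in Gr1 by the methods), called Kupffer cells (KCs) in the labels. Each library is labelled as a different mouse. The study's figure legend gives more mice per group for this sequencing than there are libraries, and how the libraries relate to them is not given. The labels' treatment text names another scheme, 500 nM DPI or DMSO on purified cells for 24 h, and the scheme in the mice was followed here because the study's design and methods state it.

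The mevalonate pathway joins acetyl-CoA units into isoprenoids and then into sterols, and it feeds both cholesterol synthesis and the lipid tails that anchor small GTPases to membranes. SREBP2, the protein of Srebf2, is held in the endoplasmic reticulum by the INSIG proteins when sterols are plentiful. When sterols run low, SCAP carries it to the Golgi, where proteases release the fragment that turns on the enzyme genes. Macrophages also take up much of their cholesterol from lipoproteins and debris and export it through transporters under the receptor LXR.

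The 9 libraries held between 3534325 and 15585775 counts, and 27.0% to 44.5% of these lay in Rn45s, a ribosomal RNA precursor. A count of 3, taken as the lowest that differs from none, stood for 0.184 to 1.02 CPM, the scale on which every library's counts are brought to one common size, here with the TMM factors of edgeR for RNA composition. Floors and intervals cover counting error only, because reads were amplified and carry no tag of their molecule of origin. The NC libraries stood apart from the rest. Spearman's correlation of gene levels, taken across genes that are not independent replicates, was 0.740 between both NC libraries, 0.867 to 0.880 among the vehicle libraries and 0.838 to 0.887 among the DPI libraries. NC library 1 held 0 counts for 171 (2.35%) of the 7262 genes that had at least 10 counts in each of the other 8 libraries, and NC library 2 for 54 of 6977 (0.774%), whereas the vehicle and DPI libraries held 0 counts for at most 14 such genes each.

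**Figure D1:**
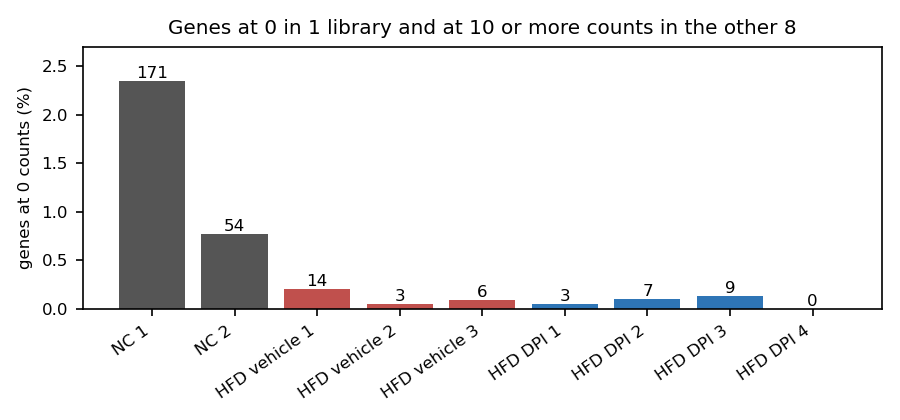
Percentage of genes (y axis) that had 0 counts in the library named on the x axis and at least 10 counts in each of the other 8, with the number of such genes above each bar. The NC libraries stand at 2.35% and 0.774%, and the 7 HFD libraries at 0.204% or lower.

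The KC label was checked against marker genes. Of 6 KC markers, Marco had no counts in the NC libraries, and Vsig4 and Marco had none in the vehicle libraries. Clec4f, which marks resident KCs, was counted 0 and 244 times in NC, 42, 0 and 0 times in vehicle and 219, 6, 4 and 6 times in DPI. The summed level of the 6 KC markers was 140 to 187 CPM in the NC libraries, 55.0 to 79.7 CPM in the vehicle libraries and 58.1 to 195 CPM in the DPI libraries. Emr1, the gene of the sort marker F4/80, made up 139 and 115 CPM of the NC sums, 55.0 to 67.3 CPM of the vehicle sums and 56.4 to 142 CPM of the DPI sums. The 5 monocyte markers summed to 3483 to 3646, 3914 to 4592 and 3305 to 6957 CPM in the same order. The samples are therefore called liver macrophages below rather than KCs.

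Fdps, which makes the farnesyl diphosphate that both the sterol and the isoprenoid branch use, was counted 0 and 0 times in NC, 121, 125 and 117 times in vehicle and 279, 41, 166 and 193 times in DPI. The NC libraries were the only ones without Fdps reads, and each HFD library held at least 41. In CPM, Fdps stood at 26.9, 22.7 and 29.0 in vehicle and at 17.1, 13.9, 30.8 and 19.7 in DPI. Means were 26.2 ± 3.22 CPM (SD, n = 3) and 20.4 ± 7.34 CPM (SD, n = 4), and against the floor of 3 counts per NC library, 0.553 CPM on average, these were at least 47.3-fold and at least 36.8-fold higher. Of 7576 genes with at least 10 counts in every HFD library, 24 (0.317%) had 0 counts in both NC libraries, and Fdps was one of them. The highest vehicle library was 1.28-fold above the lowest for Fdps, against 2.92-fold for Srebf2 and 2.39-fold for Fdft1, whereas among the DPI libraries the same ratio was 2.21 for Fdps, 3.41 for Srebf2, 2.27 for Fdft1 and 1.83 for Hmgcs1.

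Part of the Fdps sequence cannot be told from its copies. Fdps lies on the minus strand of chromosome 3 (GRCm38, chr3:89093588-89101959, GENCODE M21). Of the 1333 windows of 50 bases along its longest coding transcript, 51.1% also occurred in an annotated processed pseudogene, and 86.4% in some other annotated gene, mostly in Gm43738, a protein-coding model that overlaps Fdps on the same strand. The pseudogene Gm3571 on chromosome 10 matched Fdps at 98.87% of bases over 1062 bases, Gm5873 on chromosome 6 at 96.717% and Gm8163 on chromosome X at 96.139%. None of these models is a gene of the count table, so the reads that they share with Fdps could have been counted to Fdps or not counted. The sequences below show how close the copies are. They are the first 60 coding bases of Fdps (exon 3 of 11, minus strand, chr3:89100750-89100809) and the aligned stretch of 3 pseudogenes, with bases that differ from Fdps in capitals.
Fdps: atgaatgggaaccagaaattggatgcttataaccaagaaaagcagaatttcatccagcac
Gm3571: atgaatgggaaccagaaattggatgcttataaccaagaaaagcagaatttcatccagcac
Gm8163: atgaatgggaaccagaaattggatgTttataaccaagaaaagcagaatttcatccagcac
Gm5873: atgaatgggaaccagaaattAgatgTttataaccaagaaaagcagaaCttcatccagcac
In this stretch Gm3571 had 0 differing bases, Gm8163 had 1 and Gm5873 had 3. How the authors' counting split such reads between samples was not tested, and the Fdps values are uncertain to that extent.

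Srebf2 (chr15:82147181-82205379, plus strand, host of the microRNA gene Mir33) encodes SREBP2. It gave 59 and 122 reads in NC mice, 370, 155 and 168 in vehicle mice and 298, 33, 206 and 218 in DPI mice. The corresponding levels were 10.7 and 22.8 CPM, 82.1, 28.1 and 41.6 CPM, and 18.3, 11.2, 38.2 and 22.2 CPM. Every vehicle library lay above both NC libraries, with vehicle library 1 the highest of all, whereas the DPI libraries overlapped both other groups. Group means with SD were 16.8 ± 8.51 CPM for NC (n = 2), 50.6 ± 28.1 CPM for vehicle (n = 3) and 22.5 ± 11.4 CPM for DPI (n = 4). The difference of vehicle from NC was a log2 fold change of 1.59 (SE 0.62), which was 2.26 without NC library 2, 1.16 without NC library 1 and 1.10 without vehicle library 1. No window of 50 bases of Srebf2 or of Sqle occurred in another annotated gene. Of the windows of Hmgcs1, Lss and Cyp51, 13.6%, 4.35% and 3.17% did, mostly in genes that overlap them on the other strand. Whether the counting used strand is not given, so reads from these stretches cannot be told apart.

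Hmgcs1, which makes HMG-CoA from acetyl-CoA units, is on the plus strand of chromosome 13 (chr13:119690379-119708260). It was counted 0 and 28 times in NC, 49, 26 and 44 times in vehicle and 133, 44, 78 and 82 times in DPI. In CPM this was 0 and 5.23, then 10.9, 4.72 and 10.9, and then 8.15, 14.9, 14.5 and 8.37. All DPI libraries stood above both NC libraries, and 1 vehicle library fell below the higher NC library. The log2 fold change against NC was 1.75 (SE 1.14) in vehicle and 2.12 (SE 1.12) in DPI, with NC library 1 at no counts. Without NC library 1 these values were 0.76 and 1.13, and without NC library 2 no NC read was left.

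Idi1, the isomerase that supplies dimethylallyl diphosphate, was low in every library. It gave 0 and 28 reads in NC mice, 16, 12 and 3 in vehicle mice and 18, 11, 28 and 2 in DPI mice. NC library 2 was the highest of all 9 at 5.23 CPM, next to DPI library 3 at 5.20 CPM, and the groups overlapped. Mean levels with SD were 2.61 ± 3.70 CPM for NC (n = 2), 2.16 ± 1.40 CPM for vehicle (n = 3) and 2.56 ± 2.31 CPM for DPI (n = 4). Of the windows of its transcript, 21.3% also occurred in a processed pseudogene, so Idi1 is uncertain in the same way as Fdps.

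Fdft1 (squalene synthase), which joins farnesyl diphosphate units and commits them to sterols, was counted 25 and 55 times in NC, 179, 107 and 67 times in vehicle and 156, 64, 57 and 154 times in DPI. All vehicle libraries (39.7, 19.4 and 16.6 CPM) lay above both NC libraries (4.55 and 10.3 CPM), and the DPI libraries (9.56, 21.7, 10.6 and 15.7 CPM) overlapped both. The log2 fold change of vehicle against NC was 1.77 (SE 0.66), and that of DPI against NC was 0.95 (SE 0.61). Without NC library 2 they were 2.49 and 1.67, and without NC library 1 they were 1.30 and 0.48. Fdft1 lies on the minus strand (chr14:63145150-63179578) and its 3′ end overlaps Ctsb, the cathepsin B gene, on the other strand. Ctsb had 3661 to 24103 counts per library, and whether the counting used strand is not given in the sources used here, so reads from the shared end cannot be told apart. Of the windows of the Fdft1 transcript, 10.9% also occurred in a processed pseudogene, Gm6781, which is no gene of the count table. Fdft1 is therefore also uncertain in the way described for Fdps.

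Sqle, the epoxidase that adds oxygen to squalene, gave 9 and 51 reads in NC mice, 29, 6 and 2 in vehicle mice and 42, 4, 19 and 8 in DPI mice. Its highest value was again in NC library 2 (9.52 CPM), and the groups overlapped. Vehicle against NC gave a log2 fold change of -1.06 (SE 1.34), and DPI against NC one of -1.42 (SE 1.24). NC library 2 set these directions, since without it the values were 0.72 and 0.37, and without vehicle library 1 the former was -2.72.

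Lss, the cyclase that turns squalene epoxide into lanosterol, was the other member at 0 counts in both NC libraries. It gave 27, 12 and 1 reads in vehicle mice and 9, 9, 0 and 25 in DPI mice, so 1 vehicle library and 1 DPI library were at or under the floor as well. Mean levels were 2.81 ± 2.92 CPM (SD, n = 3) in vehicle and 1.54 ± 1.49 CPM (SD, n = 4) in DPI, at least 5.07-fold and at least 2.78-fold above the floor of NC. Without vehicle library 1 the former bound was 2.19-fold, and without DPI library 2 the latter was 1.87-fold.

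Cyp51, the lanosterol demethylase, was counted 1 and 168 times in NC, 39, 36 and 16 times in vehicle and 187, 15, 53 and 82 times in DPI. The NC libraries held both the lowest and the highest level of all 9, 0.182 and 31.4 CPM, while the 7 HFD libraries lay between 3.96 and 11.5 CPM. The log2 fold change was -1.30 (SE 1.11) in vehicle against NC and -0.85 (SE 1.03) in DPI against NC, both smaller than the distance between the NC libraries themselves. The sign depended on the NC library, with -2.28 and -1.83 without NC library 1 and 5.03 and 5.48 without NC library 2, where 1 NC count was left.

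**Figure D2:**
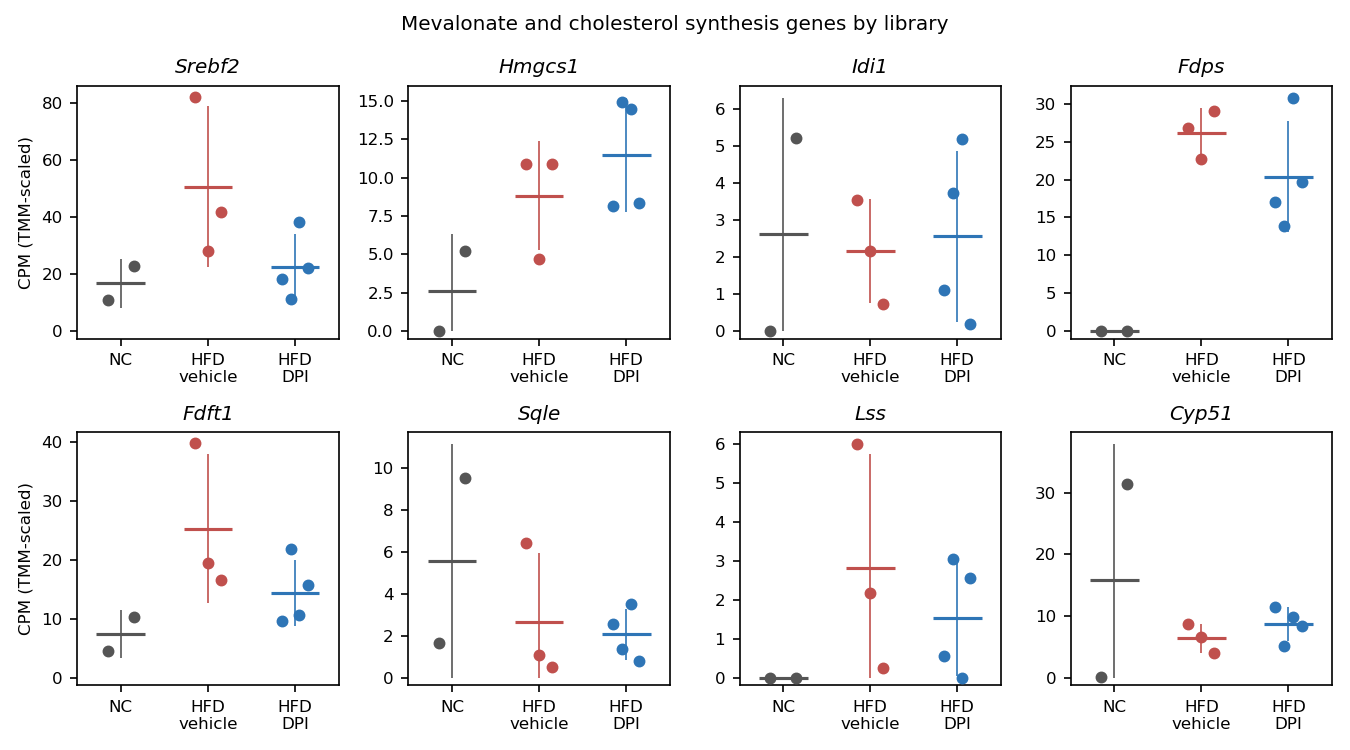
Level of each of the 8 genes in TMM-scaled CPM (y axis, own scale for each gene) in NC, HFD vehicle and HFD DPI libraries. Each point is 1 library, wide bars are group means and thin lines are ± SD, drawn from 0 upward. Fdps and Lss are at 0 in both NC libraries, and the NC libraries of Cyp51 stand at 0.182 and 31.4 CPM.

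Against NC, the 8 genes fell into unlike patterns. Of the 8, 4 (Srebf2, Fdps, Fdft1 and Lss) were higher in every vehicle library than in both NC libraries, as were 15% of all 11393 genes tested, although Lss in vehicle library 3 rested on 1 count, under the floor. In DPI, 2 (Hmgcs1 and Fdps) were higher in every library than in both NC libraries, beside 11.7% of all genes. The choice of the 8 genes used these contrasts, so the counts are given as a description only. The median log2 fold change of the 8 genes was 1.67 in vehicle and 0.69 in DPI, while the medians of all genes tested were 0.03 and 0.04. Without NC library 1 the medians of the 8 genes were 0.96 and 0.24. All 8 genes passed the filter on low counts, Fdps and Lss only through their counts in HFD libraries. The DPI and vehicle comparisons share their NC libraries. Without NC library 2, which held the higher count of each of the 6 genes with NC reads, 4 of the 8 genes (Hmgcs1, Idi1, Fdps and Lss) had no NC counts, so that the medians of 5.95 in vehicle and 5.92 in DPI rested on fitted values that are no bounds.

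**Figure D3:**
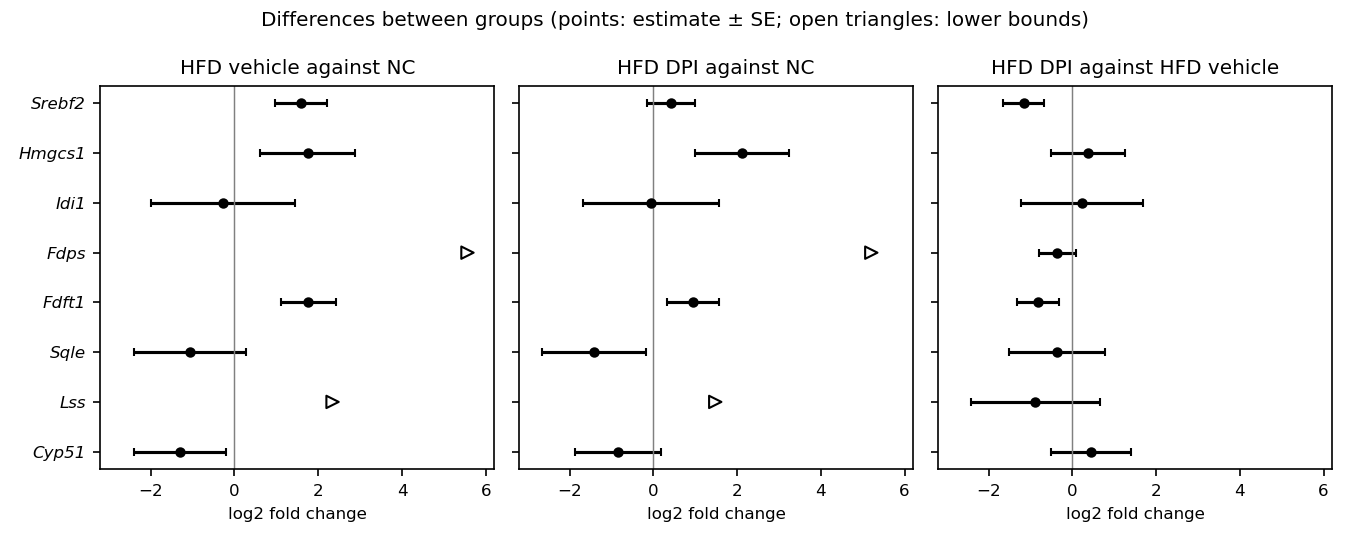
Log2 fold change (x axis) of each of the 8 genes for HFD vehicle against NC, HFD DPI against NC and HFD DPI against HFD vehicle, as points with ± SE. Open triangles are lower bounds for Fdps and Lss, which had no NC counts. In the right panel Srebf2 lies farthest below 0, at -1.17.

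Levels of the 8 genes were compared with each other per kb of their longest coding transcript. In vehicle, Fdps was highest at 18.9 ± 2.33 CPM per kb, followed by Srebf2 at 9.97 ± 5.54, Fdft1 at 6.83 ± 3.41, Hmgcs1 at 2.55 ± 1.03, Cyp51 at 1.62 ± 0.598, Sqle at 0.969 ± 1.19, Idi1 at 0.713 ± 0.464 and Lss at 0.601 ± 0.627 CPM per kb (SD, n = 3). In this order Fdps differed from Srebf2, and Fdft1 from Hmgcs1, by more than the larger SD of the pair, and all other neighbours differed by less than that SD. In DPI the first 5 kept this order, from Fdps at 14.7 ± 5.31 CPM per kb to Cyp51 at 2.21 ± 0.689 CPM per kb (SD, n = 4). In NC, where Fdps and Lss had no reads, Cyp51 at 4.01 ± 5.61 CPM per kb and Srebf2 at 3.30 ± 1.68 CPM per kb (SD, n = 2) were the highest and did not differ beyond their spread. Summed over the 8 genes, the level was 17.1 and 84.4 CPM in the NC libraries, 184, 86.9 and 104 CPM in the vehicle libraries and 68.8, 75.1, 113 and 78.0 CPM in the DPI libraries. NC library 1 was the lowest and held 5 of the 8 genes at 3 counts or fewer, whereas NC library 2 was within the range of the DPI libraries.

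In DPI against vehicle, Srebf2 was the one member past the study's threshold (an unadjusted p under 0.05 together with a change of 1 or more on the log2 scale, up or down), and it was lower in DPI. Its log2 fold change was -1.17 (SE 0.49), with an unadjusted p of 0.0317 and an adjusted p of 0.999 by the quasi-likelihood test of edgeR, with adjustment after Benjamini and Hochberg over all genes. The call therefore did not survive the correction, and the levels of the groups overlapped, with 3 of 4 DPI libraries below all 3 vehicle libraries. The size of the change rested on vehicle library 1, without which it was -0.63 and not past the threshold. Without DPI library 1, 2 or 4 it was also not past the threshold, at a change of -1.07, -0.96 and -1.16. At this threshold 2.84% of all genes tested were past it in either direction and 1.34% were lower. No gene (0%) had an adjusted p under 0.05 by edgeR, the smallest being 0.999, although 470 genes had an unadjusted p under 0.05 and DESeq2 called 2 genes at an adjusted p under 0.05.

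The other 7 members did not pass the threshold in DPI against vehicle, and their groups overlapped. Fdps had a log2 fold change of -0.36 (SE 0.44), with an unadjusted p of 0.429 and an adjusted p of 0.999 by edgeR, and Fdft1 one of -0.82 (SE 0.51, unadjusted p = 0.132, adjusted p = 0.999 by edgeR). Lss, Sqle, Hmgcs1, Cyp51 and Idi1 lay between -0.88 and 0.45, with SEs of 0.88 to 1.55 that exceeded the changes. The median of the 8 genes was -0.36, and that of all genes 0.04. Leaving out vehicle library 1, which held the highest vehicle level of 6 of the 8 genes (all but Fdps and Hmgcs1), turned the median to 0.42.

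Other genes of the pathway were taken from lists of synthesis enzymes (14 genes), SREBP machinery and targets (10) and the isoprenoid branch (12), of which 34 of 36 passed the filter on low counts. In vehicle against NC, 6 of the 34 were past the study's threshold upward and 1 downward, beside 11.7% of all genes in either direction, and none had an adjusted p under 0.05 by edgeR, beside 7 of all genes (0.0614%). Nothing is read from these counts, since Insig2, Tmem97 and Fntb, 3 of the 6, passed the filter only through the HFD libraries where they were high. Mbtps2 also needed those libraries to pass it. The median of the 34 was 0.58. Fitted changes, most of them not past the threshold, were below 0 for 9 of the 13 tested synthesis enzymes and above 0 for 7 of 9 genes of the SREBP machinery and targets and for 10 of 12 of the isoprenoid branch, while 5867 of all 11393 genes were above 0 and 5509 below. The tallies above 0 include Insig2, Tmem97, Fntb and Pdss2, which passed the filter only through HFD libraries. They also include genes such as Mbtps2 and Scap, which reached the filter's level in only 1 NC library. Nothing is therefore read from the tallies either.

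The genes of the lists past the threshold upward in vehicle against NC were Insig2, Tmem97, Mbtps2, Fntb, Pggt1b and Rabggtb. Insig2, Tmem97 and Fntb are given as a description with no p for the reason above. Insig2, which retains SREBPs in the endoplasmic reticulum, was counted 1 and 0 times in NC and 32, 50 and 10 times in vehicle, a ratio of 71.0 per effective library size (95% exact interval of the counts, 12.4 to 2834). Tmem97, the sigma-2 receptor gene and a sterol-responsive gene, gave 1 and 0 reads in NC mice and 27, 85 and 13 in vehicle mice. Insig2 and Tmem97 shared with Fdps that their NC libraries were at or near 0, and their counts in the DPI libraries, 18 to 78 and 6 to 108, lay above both NC libraries as well. Mbtps2, the site-2 protease that releases SREBPs, gave 16 and 4 reads in NC mice and 46, 39 and 39 in vehicle mice, a log2 fold change of 2.28 (SE 0.91). Of the NC libraries only library 1 reached the filter's level for Mbtps2. It needed HFD libraries to pass the filter and is given with no p. Of the 3 genes that attach isoprenoid tails, Fntb gave no NC reads and 10, 5 and 9 in vehicle mice, at least 3.23-fold above the floor. Pggt1b had a log2 fold change of 2.11 (SE 0.94) and Rabggtb one of 1.37 (SE 0.62), with adjusted p of 0.371 and 0.373 by edgeR. Mbtps2 lost the call without NC library 2, Fntb without either NC library, Pggt1b without NC library 1, DPI library 4 or any vehicle library, and Rabggtb without NC library 1, vehicle library 2 or 3 or DPI library 1 or 3.

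Mvk, the kinase of mevalonate, was the one gene of the lists past the threshold downward in vehicle against NC. It gave 48 and 1 reads in NC mice, 0, 0 and 2 in vehicle mice and 76, 6, 15 and 30 in DPI mice. NC library 1 held nearly all NC counts, and the call was lost without it and without vehicle library 1 or 2. In DPI against vehicle, Mvk was past the threshold upward, with every DPI library above every vehicle library, a ratio of 25.9 (95% exact interval of the counts, 7.03 to 216). No vehicle library helped it to pass the filter on low counts, so this is a description with no p, and without vehicle library 1, vehicle library 2 or DPI library 1 it was not past the threshold.

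Sc4mol, the methylsterol monooxygenase now named Msmo1, was the other gene of the lists past the threshold in DPI against vehicle. It was counted 178 and 123 times in NC, 125, 146 and 58 times in vehicle and 240, 25, 78 and 76 times in DPI. The DPI libraries (11.4 ± 3.75 CPM, SD, n = 4) lay below both NC libraries (27.7 ± 6.68 CPM, SD, n = 2) and overlapped the vehicle libraries (22.9 ± 7.38 CPM, SD, n = 3). The log2 fold change was -1.0 (SE 0.44) against vehicle, with an unadjusted p of 0.0404, and -1.28 (SE 0.49) against NC, with an adjusted p of 0.403 by edgeR. The call against vehicle was lost under 8 of 18 alternative settings or left-out libraries, among them those without vehicle library 1 or 2 and without DPI library 2 or 4. Over the 34 genes, Mvk and Sc4mol were the 2 past the threshold in DPI against vehicle, beside 2.84% of all genes, and nothing is read from this count, which includes Mvk. The median of the 34 was -0.05.

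In DPI against NC, 7 of the 34 genes were past the threshold, beside 9.29% of all genes in either direction. Of these, 6 were higher (Dhcr7, Fntb, Insig2, Rabggtb, Scap and Tmem97) and Sc4mol was lower, none with an adjusted p under 0.05 by edgeR, beside 1 of all genes (0.00878%). Nothing is read from the count, since Dhcr7, Fntb, Insig2 and Tmem97, 4 of the 7, passed the filter only through HFD libraries. Scap also needed those libraries to pass it. Dhcr7, the last enzyme of one route to cholesterol, gave 0 and 2 reads in NC mice, 0, 11 and 2 in vehicle mice and 19, 23, 28 and 41 in DPI mice. Fntb gave 52, 1, 1 and 22 reads in DPI mice, at least 2.69-fold above the floor of NC. Scap, the escort of SREBPs, was counted 12 and 2 times in NC and 115, 15, 42 and 47 times in DPI, a log2 fold change of 2.26 (SE 1.04). Of the NC libraries only library 1 reached the filter's level for Scap, so it is given with no p. Scap was past the threshold under 3 of 17 alternative settings or left-out libraries. Sc4mol lost this call without NC library 1 or DPI library 2, Dhcr7 without NC library 1 or DPI library 2, 3 or 4, Fntb without either NC library or DPI library 1, and Rabggtb without NC library 1, vehicle library 2 or 3 or DPI library 1 or 2. This comparison shares its libraries with the other comparisons.

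**Figure D4:**
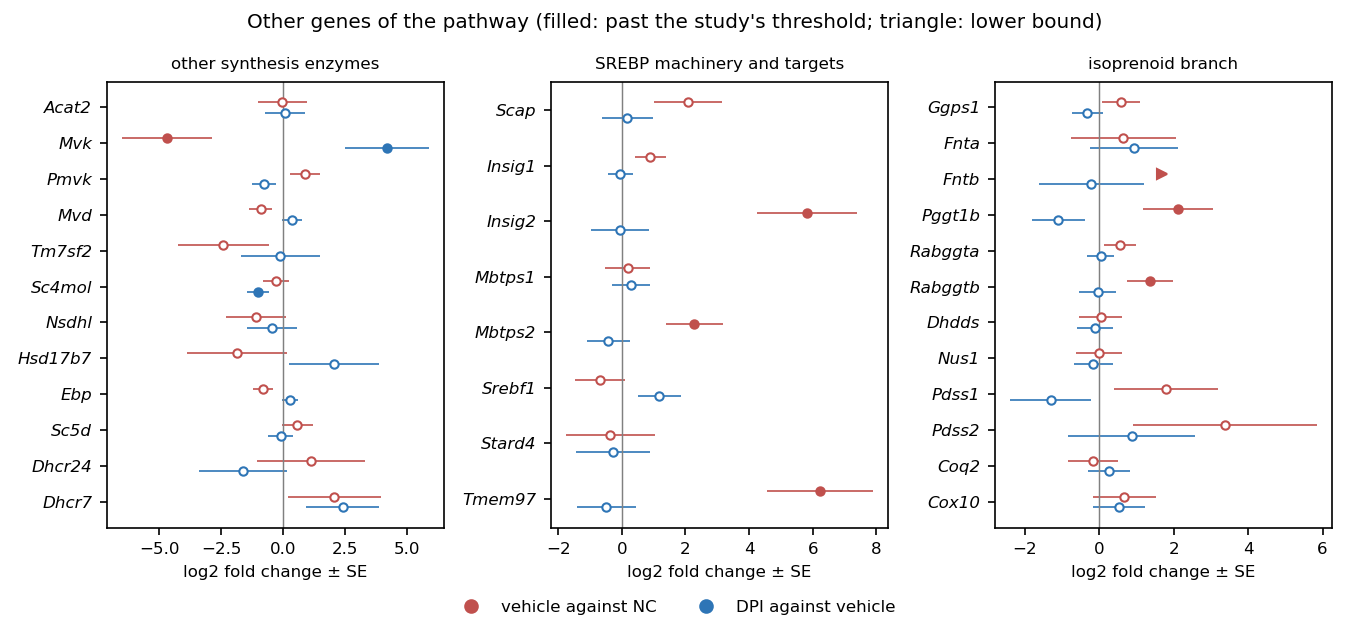
Log2 fold change ± SE (x axis) of genes of the 3 pathway lists that passed the filter on low counts and are reported here, for vehicle against NC in red and DPI against vehicle in blue. Filled symbols are past the study's threshold and the triangle is the lower bound of Fntb. Insig2, Tmem97 and Mvk are set against groups holding 1 or 2 counts in all, so their fitted values depend on the prior count.

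Markers of other cell types were summed in the same libraries, with no test. The sum of the hepatocyte markers was higher in both NC libraries than in any HFD library. The 8 hepatocyte markers summed to 136 to 192 CPM in the NC libraries, 18.9 to 50.2 CPM in the vehicle libraries and 35.3 to 85.3 CPM in the DPI libraries. Alb, Ttr, Serpina1a and Cyp3a11 were each higher in both NC libraries than in any HFD library, and Cyp3a11 was at 0 in every HFD library. Apoa1, Cyp2e1, Apoa2 and Fabp1 overlapped between the NC and the HFD libraries. The 5 sinusoidal endothelial markers summed to 116 to 169 CPM in NC, 6.44 to 9.99 CPM in vehicle and 4.27 to 123 CPM in DPI. The 5 B cell markers summed to 14.9 to 69.1 CPM in NC, 93.4 to 179 CPM in vehicle and 15.62 to 405 CPM in DPI. The 4 eosinophil markers in the table summed to 0 to 0.187 CPM in NC, 0 to 1.81 CPM in vehicle and 0.371 to 102 CPM in DPI. The neutrophil markers summed to 721 to 2794, 2276 to 3482 and 484 to 4875 CPM and those of T and NK cells to 35.7 to 144, 117 to 175 and 93.8 to 144 CPM, in the same order. The part of these cells in the levels of the 8 genes was not tested, and in bulk libraries fewer cells of a type cannot be told apart from less RNA per cell.

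The genes whose pattern was most like that of Fdps were found by the mean absolute difference of log2 CPM (prior count 2), centred on each gene's mean, over the 9 libraries. Of 11392 genes these were Fbxl4 (0.51), Tdp1 (0.57), Gpr174 (0.62), Tmem115 (0.63) and Tmem254b (0.64), all at 0 counts in NC library 1 and at 0 to 6 counts in NC library 2. Fbxl4 gave 62, 56 and 27 reads in vehicle mice and 192, 18, 94 and 66 in DPI mice. No other member was among them. Hmgcs1 came nearest at rank 201 (1.24), then Fdft1 at rank 1281, Lss at 1646, Cyp51 at 1884, Srebf2 at 2139, Idi1 at 3668 and Sqle at 10062 (2.52).

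Promoters were searched for 2 sequences known from the SREBP2 field, an SRE-like motif written TCACNCCAC and the CCAAT box bound by NF-Y, which acts beside SREBPs. RefSeq promoters (GRCm38.p6) were at hand for 5 of the 8 genes, and both strands of the 250 bases before the start site were read. The SRE-like letters occurred in 1 of the 5, Hmgcs1, and in 1.05% of 32851 promoters, and CCAAT occurred in 5 of 5 and in 33.8% of all promoters. A match is a description of the letters and no evidence of binding. The stretches below hold a match (in capitals, on either strand) for the gene with the SRE-like letters, for Srebf2 itself and for Lss. They lie on the plus strand at chr13:119690188-119690247 (Hmgcs1), chr15:82147106-82147165 (Srebf2) and chr10:76531515-76531574 (Lss).
Hmgcs1: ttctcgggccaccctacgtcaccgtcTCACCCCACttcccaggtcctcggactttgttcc
Srebf2: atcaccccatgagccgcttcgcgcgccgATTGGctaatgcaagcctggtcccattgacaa
Lss: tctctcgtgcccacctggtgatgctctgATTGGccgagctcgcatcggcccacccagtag
Counted from the start site, the SRE-like letters of Hmgcs1 lay at -137 to -129, and the CCAAT letters shown lay at -135 to -131 in Srebf2 and at -62 to -58 in Lss. These 3 genes did not share a pattern over the libraries, since Lss was at 0 in both NC libraries, Hmgcs1 in 1 and Srebf2 in neither.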

How the data were processed

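RNA-seq was analysed in 9 libraries of sorted liver macrophages (NC 2, HFD vehicle 3, HFD DPI 4), grouped by the labels. The authors prepared polyA libraries and deposited whole-number read counts per gene, unnormalized, in one table. The study's methods name bowtie2 for alignment to mm10 and RSEM for counting, whereas the submitters' processing notes name TopHat2 and edgeR. How reads that match several places were treated is not given in the sources used here, which bears on Fdps, Idi1 and Fdft1. Library totals were 3534325 to 15585775 counts, and p-values measure the spread between these libraries, which are labelled as different mice.

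The 8 genes and all lists were chosen with earlier results of these data known. Counts were fitted with edgeR 4.0.16 in R 4.3.3 (filterByExpr, TMM, glmQLFit over 3 groups, all 9 libraries, biological coefficient of variation 0.65). Benjamini-Hochberg adjustment ran over the 11393 genes that passed the filter. SE is the log2 fold change divided by the square root of F. Genes named were the 8 members, genes of 3 lists past the study's threshold in any contrast and the 5 genes most like Fdps; cell type markers were named beside them. Some genes that the rule also named are not reported here. Fntb, Insig2 and the like with few counts are given as counts, bounds or ratios. The fit was tested on simulated data.

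Alternatives were other normalizations, other filters, DESeq2 1.42.0, a replicate block, thinning, leaving out Rn45s and leaving out each library. Positions came from GENCODE M21, copies from BLAST+ 2.17.0 and tables from Python 3.11.15. No protein sequence was used here.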

Additional observations from a re-analysis of the deposited data

How the results depend on the processing

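The 18 alternatives changed some calls. For members called in DPI against vehicle (1, Srebf2), library size only and the replicate block each gave 0, and leaving out 1 library gave 0 to 1. For pathway genes called in vehicle against NC (7), at least 10 counts in every library gave 1, fitting only the 2 groups 3 and the replicate block 4, and left-out libraries 5 to 7. In DPI against vehicle (2), library size only, no filter, at least 10 counts, the block and thinning each gave 1, and left-out libraries 0 to 2. In DPI against NC (7), library size only gave 4, at least 10 counts 2, the block 4, thinning 3 and left-out libraries 4 to 6. The cause was not tested. The median of the 8 genes ran, over left-out libraries, from 0.96 to 5.95 in vehicle against NC, from -0.60 to 0.42 in DPI against vehicle and from 0.24 to 5.92 in DPI against NC, and could not be given at 10 counts in every library. In DPI against vehicle, Idi1 was -0.10 when thinned and -0.42 to 0.75 over left-out libraries, Sqle 0.22 under the block and -0.85 to 1.34, and Lss -1.42 to 0.28. Srebf2 was lower under all 18, from -1.54 to -0.63, and past the threshold under 12. Same-numbered mice of different groups did not deviate together (correlations -0.022 to 0.084), so the numbers pair no libraries, and the block is only an alternative. Library size only shifted the median of all genes by -0.29 in vehicle against NC and -0.22 in DPI against NC, and Srebf2 (1.33), Hmgcs1 (1.47) and Fdft1 (1.51) stayed higher in vehicle. Genes called among all ranged from 726 to 2634 in vehicle against NC (1329), 187 to 602 in DPI against vehicle (324) and 527 to 2626 in DPI against NC (1058). A floor of 3 counts is 0.184 to 1.02 CPM, so Idi1 and Lss lie close to it in several libraries.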

Other observations

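Genes of 2 neighbouring lipid programmes, cholesterol export and fatty acid synthesis, were counted in the same way. Of 8 LXR targets and efflux genes, which export cholesterol, 0 were past the study's threshold in vehicle against NC, in DPI against vehicle or in DPI against NC by edgeR, also with no unadjusted p under 0.05, and their median log2 fold changes were -0.02, -0.03 and 0.22. The shares of all genes past it were 11.7%, 2.84% and 9.29%. Of 7 fatty acid synthesis genes, targets mainly of SREBP1, Scd1 was past the threshold upward in vehicle against NC, Fasn downward in DPI against vehicle, and Elovl6 and Scd1 upward with Fasn and Scd2 downward in DPI against NC, which is 1, 1 and 4 of the 7 beside those shares. None of these had an adjusted p under 0.05 (smallest 0.139, edgeR, adjusted after Benjamini and Hochberg), and the list's medians were -0.07, -0.29 and -0.66.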
